A study of Mus musculus with 6 samples.

Results

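The ovary RNA-seq of this study was examined here for 8 genes of progesterone synthesis and breakdown, namely Star, Cyp11a1, Hsd3b1, Fdx1, Fdxr, Akr1c18, Stard3 and Tspo. They were taken by symbol from a table of 44788 genes, and all 8 were among the 19423 genes with enough counts to be tested. Total RNA was sequenced from the ovaries of 8-week-old C57BL/6 J mice, with 3 wild-type (WT, Bnc1+/+) samples numbered 1, 4 and 7 and 3 homozygous Bnc1tr/tr samples numbered 1, 2 and 3. The tr allele is a small deletion in an exon of Bnc1 that shifts the reading frame and ends the protein early, and it is carried by every cell of the mouse, so no ovarian cell type was targeted. Bnc1 encodes basonuclin 1, a zinc finger protein of the germline and of stratified epithelia. Mice were compared with their littermates. The labels give no treatment and no stage of the estrous cycle. The study describes the 3 samples of a genotype as biological replicates, and neither it nor the labels say whether each was the ovary tissue of a single mouse.

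Progesterone is the steroid that prepares and keeps pregnancy, and in the cycling ovary its main source is the corpus luteum, the gland that forms from a follicle after ovulation. Cholesterol must first reach the inner mitochondrial membrane, a step in which STAR is rate-limiting and for which STARD3, at late endosomes, and TSPO, in the outer mitochondrial membrane, are also described. There CYP11A1 cleaves the cholesterol side chain to pregnenolone, with electrons passed from NADPH through ferredoxin reductase (FDXR) and ferredoxin (FDX1). HSD3B1, a 3beta-hydroxysteroid dehydrogenase, then turns pregnenolone into progesterone. AKR1C18, a 20alpha-hydroxysteroid dehydrogenase, breaks progesterone down to 20alpha-hydroxyprogesterone, and in rodents it marks the regressing corpus luteum. Of the 8 products, STAR, STARD3 and TSPO are carriers or membrane proteins and FDX1 is an electron carrier, and the others are enzymes.

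In the mouse genome build GRCm38, with the GENCODE M21 annotation, the 8 genes lie on 6 chromosomes. Star is at chr8:25806555-25815982 on the plus strand, Cyp11a1 at chr9:58006411-58027023 on the plus strand, Hsd3b1 at chr3:98852194-98859794 on the minus strand and Fdx1 at chr9:51943306-51963556 on the minus strand. Fdxr is at chr11:115268024-115277050 on the minus strand, Akr1c18 at chr13:4132615-4150654 on the minus strand, Stard3 at chr11:98358368-98381112 on the plus strand and Tspo at chr15:83563592-83574203 on the plus strand. Hsd3b1 and Akr1c18 belong to families of similar genes, and a read from a stretch shared with another gene cannot be assigned to a single copy. Of all 50-base words in the longest Hsd3b1 transcript, 4.98% also occurred in another gene, with 2.77% in Gm12431, 2.1% in Hsd3b6, 1.11% in Hsd3b2 and 1.05% in Hsd3b3. For Akr1c18 the share was 0.61%, all with Akr1cl, for Tspo 0.51%, for Cyp11a1 0.09%, and for Star, Fdx1, Fdxr and Stard3 it was 0.0%. The longest coding stretch that Hsd3b1 shares with Hsd3b6 (72 bases, coding bases 250 to 321 of Hsd3b1) and the longest that Akr1c18 shares with Akr1cl (56 bases, coding bases 413 to 468 of Akr1c18) are given here because reads inside them are ambiguous, whatever the counting method.
Hsd3b1 and Hsd3b6: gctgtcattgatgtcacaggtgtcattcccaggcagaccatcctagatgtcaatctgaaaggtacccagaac
Akr1c18 and Akr1cl: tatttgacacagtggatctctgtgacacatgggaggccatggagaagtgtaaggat
Exons of Cyp11a1 overlapped 145 bases of the lincRNA Gm17322 on the same strand, and exons of Tspo overlapped 53 bases of Mcat on the opposite strand. Reads from the Cyp11a1 overlap cannot be told apart by strand. Whether the counting used strand is not given in the sources used here, so the value of Tspo could also hold reads of its neighbour.

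The promoters of a synthesis gene and of the breakdown gene follow, from base 250 to base 11 before the start of transcription, as RefSeq gives them for GRCm38.p6. They lie on the minus strand, at chr3:98859805-98860044 for Hsd3b1 and at chr13:4150657-4150896 for Akr1c18. Capitals mark letters that match a searched motif.
Hsd3b1: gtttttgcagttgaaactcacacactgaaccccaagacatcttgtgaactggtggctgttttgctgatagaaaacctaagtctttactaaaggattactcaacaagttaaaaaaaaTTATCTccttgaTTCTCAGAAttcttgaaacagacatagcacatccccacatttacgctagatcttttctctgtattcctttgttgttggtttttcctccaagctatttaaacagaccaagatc
Akr1c18: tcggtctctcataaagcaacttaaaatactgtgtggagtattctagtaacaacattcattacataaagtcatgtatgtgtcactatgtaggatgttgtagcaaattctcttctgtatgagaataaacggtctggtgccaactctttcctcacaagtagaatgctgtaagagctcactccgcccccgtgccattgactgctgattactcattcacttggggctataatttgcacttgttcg
The 6 strings searched on both strands, in windows of 300 bases that run 50 bases past the start, were CAAGGTCA and CAAGGCCA for NR5A receptors, TGACGTCA for CREB, AGATAA for GATA factors, TTCNNNGAA for STAT factors and TATAAA for the TATA box. Hsd3b1 held AGATAA on the opposite strand, read as TTATCT 134 bases before the start, and TTCNNNGAA as TTCTCAGAA 122 bases before it. These were the matches in the windows of Hsd3b1, Fdx1, Fdxr, Akr1c18 and Stard3. RefSeq also gives 2 windows for Cyp11a1, which held no match, but neither lies at the GENCODE start of the gene, so they say nothing of a promoter there. Among all 32851 promoters, AGATAA was found in 11.2%, TTCNNNGAA in 8.3%, TATAAA in 13.6%, CAAGGCCA in 2.4%, TGACGTCA in 1.79% and CAAGGTCA in 1.56%. A match is a description of the letters only, and binding was not measured in these samples.

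The samples held 25247770 to 34406296 counted reads, which gives every one of the 8 genes at least 189 counts in every sample. Bnc1 itself was counted 375, 444 and 381 times in WT 1, 4 and 7 and 527, 355 and 326 times in Bnc1tr/tr 1, 2 and 3, so the transcript was present in both genotypes and, since the allele removes only a few bases, its count does not check the labels. No pair of replicates agreed within counting noise (chi-square per degree of freedom of 16.7 to 64.3), so all 6 samples were kept. Values below are read counts scaled to the size of the library (CPM) with TMM factors, which set the samples on a common scale, and fold changes are Bnc1tr/tr against WT with edgeR's quasi-likelihood test, adjusted over all 19423 genes by the Benjamini-Hochberg method.

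Of the 8 genes, 3 fell in Bnc1tr/tr ovaries at an adjusted p under 0.05, namely Star (4.71-fold lower), Cyp11a1 (2.86-fold lower) and Hsd3b1 (1.65-fold lower), the carrier and both enzymes on the direct path from cholesterol to progesterone. Among all genes tested, 7.06% passed the same threshold, 4.19% as lower and 2.88% as higher in Bnc1tr/tr. The electron donors Fdx1 and Fdxr had lower values in all 3 Bnc1tr/tr samples than in any WT sample but did not pass. Akr1c18, Stard3 and Tspo overlapped between the genotypes. In all, 6 of the 8 log2 fold changes were negative, with a median of -0.84, against a median of 0.018 over all genes tested, of which 9212 were negative. The values of 5 of the 8 were lower in every Bnc1tr/tr sample than in every WT sample, a pattern that 15.8% of all tested genes showed in that direction and 30.8% in either direction. In whole ovaries, fewer cells of a type and less RNA per cell cannot be told apart. The 3 calls depended on which samples were included. Without WT 1, WT 4, WT 7 or Bnc1tr/tr 3, none of the 3 passed (adjusted p = 0.0524 to 0.152 by edgeR's quasi-likelihood test), while the fold changes stayed negative, and without Bnc1tr/tr 1 or Bnc1tr/tr 2 the same 3 and Fdxr passed.

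**Figure D1:**
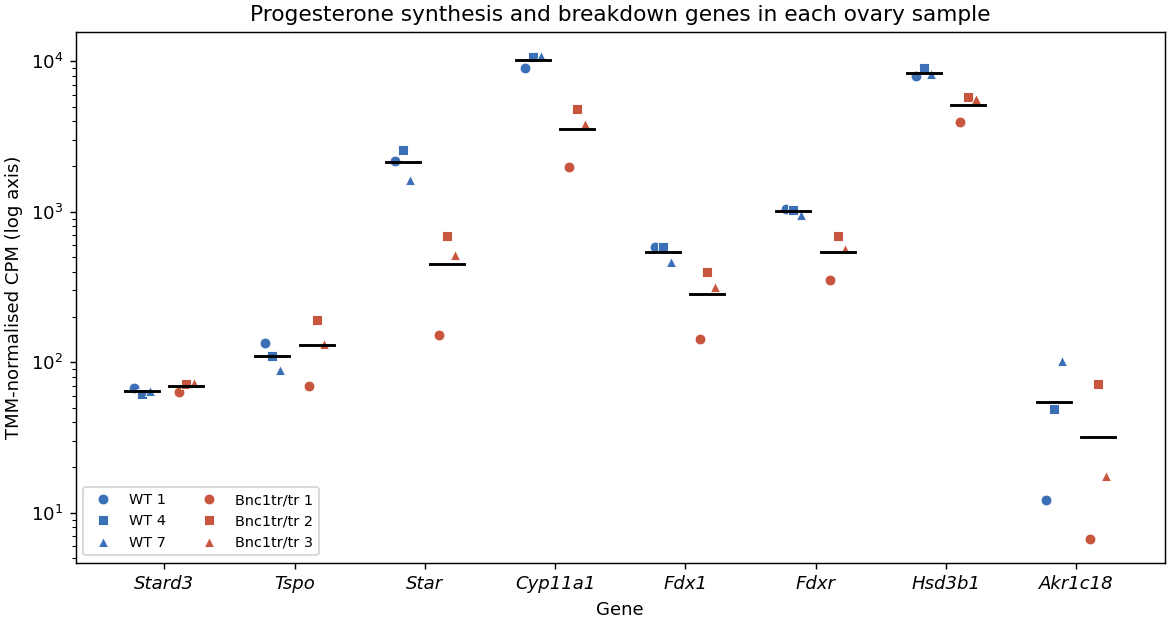
TMM-normalised CPM (log axis) of the 8 genes in the 3 WT samples (blue) and the 3 Bnc1tr/tr samples (red), with 1 symbol for each sample and a bar at the mean. Star, Cyp11a1, Fdx1, Fdxr and Hsd3b1 separate the genotypes, whereas Stard3, Tspo and Akr1c18 overlap, and Bnc1tr/tr 1 (red circle) is the lowest sample for every gene but Stard3.

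Among the genes that deliver cholesterol, Star had 2180, 2565 and 1634 CPM in WT 1, 4 and 7 and 151, 689 and 516 CPM in Bnc1tr/tr 1, 2 and 3. Every WT sample was thus above every Bnc1tr/tr sample, and Bnc1tr/tr 1 stood well below the other two. The means were 2127 ± 468 CPM (SD, n = 3) in WT and 452 ± 275 CPM (SD, n = 3) in Bnc1tr/tr, and the log2 fold change was -2.23 (SE 0.49, 95% interval -3.37 to -1.10, edgeR adjusted p = 0.0374). Star was the gene of the 8 with the lowest log2 fold change. Within Bnc1tr/tr its highest sample was 4.56 times its lowest, against 1.57 times within WT. Without Bnc1tr/tr 1 the log2 fold change of Star was -1.82, and edgeR then gave an adjusted p of 0.00839.

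Stard3, which binds cholesterol through a START domain like that of STAR, had 66.9, 61.6 and 64.2 CPM in WT and 63.0, 71.7 and 72.4 CPM in Bnc1tr/tr. Its log2 fold change was 0.10 (SE 0.09, 95% interval -0.10 to 0.30), and edgeR gave an adjusted p of 0.51. This interval is the narrowest of the 8 and holds no change above 0.30 on the log2 scale or below -0.10. Tspo, the translocator protein, had 133, 109 and 89.0 CPM in WT and 69.1, 192 and 132 CPM in Bnc1tr/tr. Bnc1tr/tr 1 was the lowest and Bnc1tr/tr 2 the highest of the 6 samples, so that the 3 Bnc1tr/tr values enclosed the WT values. The log2 fold change of Tspo was 0.24 (95% interval -0.52 to 1.01, edgeR adjusted p = 0.695).

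Of the side chain cleavage system, Cyp11a1 had 9054, 10627 and 10793 CPM in WT 1, 4 and 7 and 1975, 4823 and 3844 CPM in Bnc1tr/tr 1, 2 and 3. Its highest Bnc1tr/tr value lay well below its lowest WT value. The means were 10158 ± 959 CPM (SD, n = 3) and 3547 ± 1447 CPM (SD, n = 3), with a log2 fold change of -1.52 (SE 0.29, 95% interval -2.20 to -0.83, edgeR adjusted p = 0.0261). Cyp11a1 alone held 0.866%, 1.02% and 1.05% of all counted reads in the WT samples and 0.204%, 0.496% and 0.399% in the Bnc1tr/tr samples. The 8 genes together held 2.02% to 2.31% of reads in WT and 0.694% to 1.31% in Bnc1tr/tr, most of it from Cyp11a1 and Hsd3b1.

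Fdxr, the reductase that takes electrons from NADPH, had 1046, 1020 and 951 CPM in WT and 353, 692 and 567 CPM in Bnc1tr/tr. The WT samples lay close together and all Bnc1tr/tr samples were below them. The log2 fold change was -0.90 (SE 0.22, 95% interval -1.41 to -0.39), and its edgeR adjusted p of 0.0509 lay just above the threshold. Fdx1, the ferredoxin that hands these electrons to CYP11A1, had 580, 584 and 463 CPM in WT and 143, 395 and 318 CPM in Bnc1tr/tr. Its samples did not overlap either, and Bnc1tr/tr 1 was again the lowest. The log2 fold change of Fdx1 was -0.93 (SE 0.32, 95% interval -1.68 to -0.18, edgeR adjusted p = 0.132).

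Hsd3b1 makes progesterone from pregnenolone, and it had 8044, 9027 and 8220 CPM in WT 1, 4 and 7 and 3951, 5801 and 5591 CPM in Bnc1tr/tr 1, 2 and 3. The genotypes were apart, with Bnc1tr/tr 1 lowest. The means were 8430 ± 524 CPM (SD, n = 3) and 5114 ± 1013 CPM (SD, n = 3), and the log2 fold change was -0.72 (SE 0.16, 95% interval -1.09 to -0.35, edgeR adjusted p = 0.0391). Hsd3b1 thus passed the test with a smaller change than Fdx1 and Fdxr, which varied more. Its standard error was 0.16 on the log2 scale, against 0.32 for Fdx1.

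The breakdown gene Akr1c18 was the most variable of the 8. It had 12.2, 49.2 and 103 CPM in WT 1, 4 and 7 and 6.72, 71.8 and 17.4 CPM in Bnc1tr/tr 1, 2 and 3. WT 7 was the highest and Bnc1tr/tr 1 the lowest, and the other 4 samples of the 2 genotypes were interleaved. Within WT the highest sample was 8.41 times the lowest, and within Bnc1tr/tr 10.7 times. The log2 fold change was -0.78 (SE 0.91, 95% interval -2.88 to 1.33, edgeR adjusted p = 0.647). The interval spans a fall and a rise alike, so that 3 samples a genotype did not resolve a direction, and without WT 7 the log2 fold change was 0.05.

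**Figure D2:**
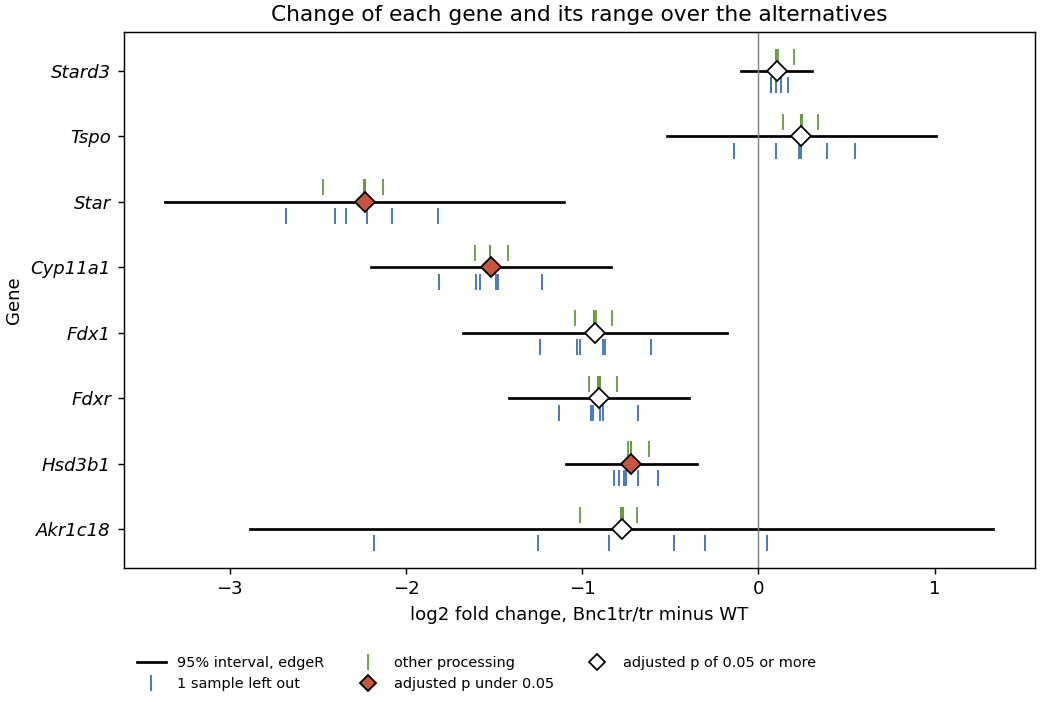
Log2 fold change of each gene, Bnc1tr/tr minus WT (diamond, filled where the edgeR adjusted p was under 0.05), with its 95% interval (line), the values with each sample left out in turn (blue ticks) and the values under other processing (green ticks). Star (-2.23), Cyp11a1 (-1.52) and Hsd3b1 (-0.72) are filled, and the ticks of Akr1c18 run from -2.18 to 0.05.

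Read counts rise with transcript length, so levels of different genes were set side by side as CPM per kilobase of exon. In WT the order of the mean levels was Hsd3b1 (4545 CPM per kb), Cyp11a1 (2115 CPM per kb), Star (517 CPM per kb), Fdxr (358 CPM per kb), Fdx1 (175 CPM per kb), Tspo (105 CPM per kb), Akr1c18 (45.3 CPM per kb) and Stard3 (18.1 CPM per kb). The neighbours down to Tspo did not overlap among the WT samples, whereas Tspo and Akr1c18 overlapped, as did Akr1c18 and Stard3. In Bnc1tr/tr the order was Hsd3b1 (2757 CPM per kb), Cyp11a1 (738 CPM per kb), Fdxr (192 CPM per kb), Tspo (124 CPM per kb), Star (110 CPM per kb), Fdx1 (91.9 CPM per kb), Akr1c18 (26.5 CPM per kb) and Stard3 (19.4 CPM per kb). Hsd3b1 and Cyp11a1 did not overlap each other or the rest, and the mean of Star lay below those of Fdxr and Tspo. From Fdxr down, each pair of neighbours in this order overlapped among the Bnc1tr/tr samples. Star ranged there from 36.7 to 168 CPM per kb and Fdx1 from 46.1 to 127 CPM per kb. The lengths are those of the union of exons in GENCODE M21, which may not be the annotation the reads were counted on.

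To ask whether the genes kept their proportions to one another, the log2 ratio of their counts was taken within each sample, where scaling between samples plays no part. With 3 samples against 3, the exact two-sided permutation test cannot give a p below 0.1, which becomes 0.18 after adjustment over the 9 ratios, so no ratio could pass. The ratio of Star to Cyp11a1 was -2.05, -2.05 and -2.72 in WT 1, 4 and 7 and -3.71, -2.81 and -2.90 in Bnc1tr/tr 1, 2 and 3. Star was thus lower relative to Cyp11a1 in each Bnc1tr/tr sample, by 0.86 on the log2 scale between the means (exact permutation p = 0.1), though WT 7 and Bnc1tr/tr 2 were close. The ratio of Hsd3b1 to Cyp11a1 was -0.17, -0.23 and -0.39 in WT and 1.0, 0.27 and 0.54 in Bnc1tr/tr. Cyp11a1 therefore had more reads than Hsd3b1 in each WT sample and fewer in each Bnc1tr/tr sample, a difference of 0.87 between the mean log2 ratios (exact permutation p = 0.1).

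The electron donor ratio of Fdx1 to Fdxr was -0.85, -0.80 and -1.04 in WT and -1.30, -0.81 and -0.83 in Bnc1tr/tr. The samples overlapped, and the means differed by -0.08 (exact permutation p = 0.8). Against Cyp11a1, Fdx1 was higher in Bnc1tr/tr by 0.57 on the log2 scale, with no overlap (exact permutation p = 0.1). The ratios of Stard3 to Star and of Tspo to Star were higher in Bnc1tr/tr by 2.57 and 2.61, each with no overlap and an exact permutation p of 0.1. Since Stard3 and Tspo overlapped between the genotypes and Star did not, these differences rest on the values of Star.

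The ratio of the breakdown gene to the synthesis genes varied more between samples than between genotypes. For Akr1c18 to Star the log2 ratio was -7.48, -5.70 and -3.99 in WT and -4.49, -3.26 and -4.88 in Bnc1tr/tr. The mean was 1.51 higher in Bnc1tr/tr, but WT 7 lay among the Bnc1tr/tr samples (exact permutation p = 0.3, adjusted p = 0.45). The difference was 0.64 without WT 1, 1.04 without Bnc1tr/tr 2 and 2.38 without WT 7. Akr1c18 to Cyp11a1 differed by 0.65 (exact permutation p = 0.6) and Akr1c18 to Hsd3b1 by -0.21 (exact permutation p = 0.9).

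**Figure D3:**
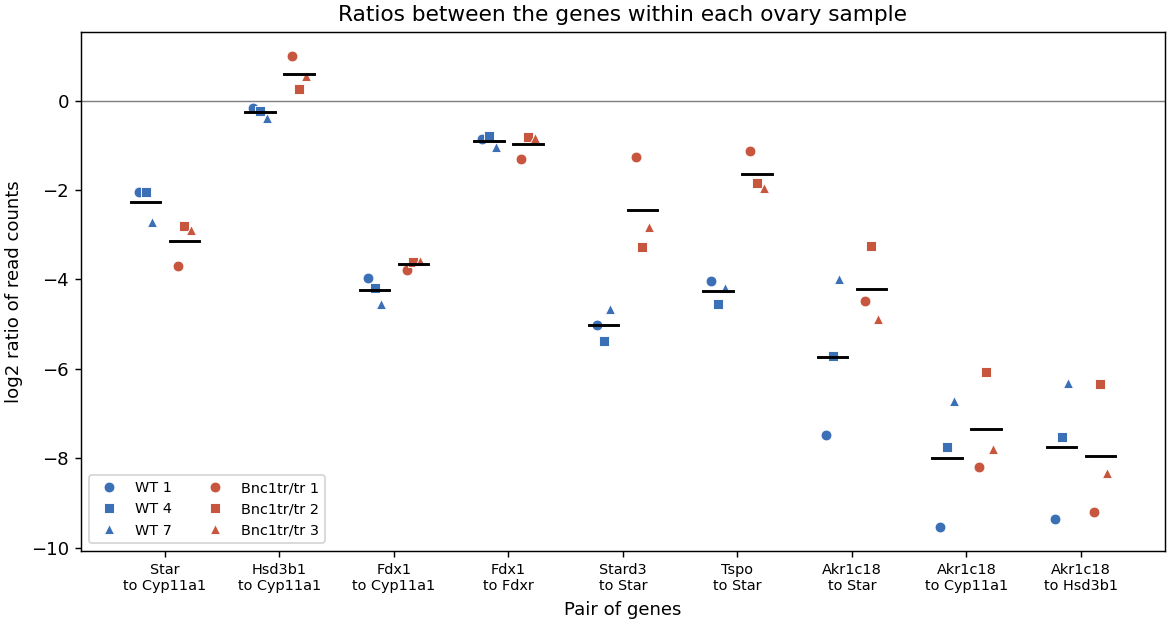
Log2 ratio of the read counts of 2 genes within each of the 3 WT samples (blue) and the 3 Bnc1tr/tr samples (red), with a bar at the mean of each genotype. Hsd3b1 to Cyp11a1 lies below 0 in all WT samples and above 0 in all Bnc1tr/tr samples, and the 3 ratios with Akr1c18 overlap between the genotypes.

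The luteal tissue of the samples was described with 8 markers of the corpus luteum. Over all genes tested, 4.19% were called as lower in Bnc1tr/tr. Of the 8 markers, 6 fell at an edgeR adjusted p under 0.05 and 2, Parm1 and Bhmt, did not pass. Their summed level was 4579, 6676 and 7482 CPM in WT 1, 4 and 7 and 1366, 1395 and 1273 CPM in Bnc1tr/tr 1, 2 and 3, and no defining marker was absent from either genotype. Lhcgr, the receptor for luteinizing hormone, was at 13.4%, 12.4% and 11.4% of its WT mean in Bnc1tr/tr 1, 2 and 3. Scarb1, the receptor that takes up cholesterol from high-density lipoprotein, was at 24.6%, 28.7% and 29.3%, and Prlr, the prolactin receptor, at 22.8%, 47.0% and 39.8%. Star was at 7.1%, 32.4% and 24.2%, Cyp11a1 at 19.4%, 47.5% and 37.8% and Hsd3b1 at 46.9%, 68.8% and 66.3%. Of the other called markers, Hsd17b7, which acts in cholesterol and steroid synthesis, was at 12.5%, 3.90% and 4.77%, Sfrp4 at 24.9%, 15.7% and 10.9% and Ptgfr, the receptor for prostaglandin F, at 24.9%, 31.2% and 16.2%. Of the 2 that did not pass, Bhmt was at 1.40%, 35.5% and 31.9%, below every WT sample, with 21 counts in Bnc1tr/tr 1. Parm1 was at 43.55%, 90.32% and 98.21% and overlapped WT. The order of the 3 Bnc1tr/tr samples thus differed between markers. Bnc1tr/tr 1 was the lowest of them for Prlr, Scarb1, Bhmt and Parm1, as for Star, Cyp11a1 and Hsd3b1. It was the highest for Lhcgr, Hsd17b7 and Sfrp4, and lay between the others for Ptgfr. The 6 called markers were thus lower in Bnc1tr/tr, as the 3 genes were, but not all of them followed these genes from sample to sample. The part of luteal tissue in the result was not tested.

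**Figure D4:**
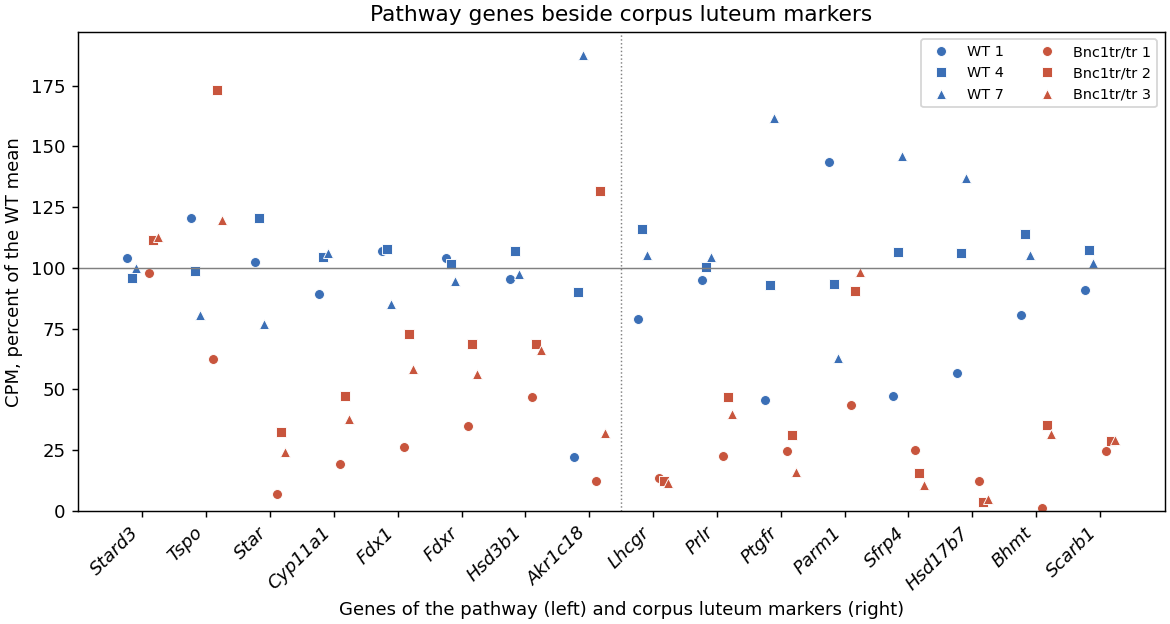
CPM of the 8 pathway genes (left of the dotted line) and of 8 corpus luteum markers (right), each as a percent of its WT mean, with 1 symbol for each of the 3 WT samples (blue) and the 3 Bnc1tr/tr samples (red). Lhcgr lies at 11.4% to 13.4% in the Bnc1tr/tr samples, and Star at 7.1% to 32.4%.

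Markers of other steroid-making cells were read in the same way, beside 4.19% of all tested genes called as lower and 2.88% as higher. The granulosa list, of the cells that line the follicle, summed to 3727 to 4781 CPM in WT and 4259 to 6740 CPM in Bnc1tr/tr. Of its 10 genes 1 was called, Amh, as higher (log2 fold change 1.065, edgeR adjusted p = 0.0294). Inha, which was not called, alone gave 1982 to 2529 CPM of the sum in WT and 2272 to 3934 CPM in Bnc1tr/tr. The theca list, of the cells around the follicle, summed to 1691 to 2030 CPM in WT and 1770 to 2836 CPM in Bnc1tr/tr, and Nr2f2 (log2 fold change 0.53) was the called gene among its 5. Most of this sum was Aldh1a1, with 1428 to 1782 CPM in WT and 1274 to 2516 CPM in Bnc1tr/tr, so it describes that gene more than the list. The adrenal cortex also makes progesterone. Of its 4 markers, Cyp11b2, Cyp21a1 and Mc2r were at or under 3 counts in every WT sample. In Bnc1tr/tr, Mc2r reached 12 counts in Bnc1tr/tr 1 and Cyp11b2 reached 6 in Bnc1tr/tr 2. Cyp11b1 had 148, 54 and 20 counts in WT 1, 4 and 7 and 2, 275 and 220 in Bnc1tr/tr 1, 2 and 3. The summed list was at 0.828 to 5.58 CPM in WT and 0.498 to 10.9 CPM in Bnc1tr/tr. Of the endothelial markers, 3 of 5 fell, and their sum was 493, 544 and 657 CPM in WT and 325, 357 and 369 CPM in Bnc1tr/tr. The macrophage list, with 0 of 6 genes called by edgeR or DESeq2 and 1 at an unadjusted p under 0.05, summed to 337 to 355 CPM in WT and 212 to 414 CPM in Bnc1tr/tr. The oviduct list summed to 509 CPM in Bnc1tr/tr 3 and 136 CPM in WT 1, against 9.43 to 26.6 CPM in the other 4 samples. The adipocyte list summed to 234 and 190 CPM in Bnc1tr/tr 1 and 2 and to 13.2 to 71.9 CPM in the other 4, and 1 of its 4 genes rose, the lipid droplet gene Plin1 (log2 fold change 1.28, edgeR adjusted p = 0.0442). The oocyte sum was 543 to 705 CPM in WT and 671 to 1027 CPM in Bnc1tr/tr, and 3 of its 10 genes rose, Gdf9 (log2 fold change 0.78), Bmp15 (0.93) and Oosp1 (1.04). The smooth muscle sum was 1651 to 1838 CPM and 1705 to 1885 CPM. The part of any of these cell types in the results was not tested.

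The genes around the 8 were read from lists of the pathway. Among all genes tested, 4.19% were called as lower and 2.88% as higher in Bnc1tr/tr, and 30.8% did not overlap, in either direction. The counts and gaps of each list below are to be read against these shares. Of 13 tested genes that bring cholesterol to the mitochondria, 2 fell and 11 were not called (median log2 fold change -0.18). Npc2, which releases cholesterol from lysosomes, had 555, 686 and 702 CPM in WT and 292, 335 and 317 CPM in Bnc1tr/tr (log2 fold change -1.04, edgeR adjusted p = 0.00367). Stard4, a cytosolic cholesterol carrier, had 36.6, 48.8 and 38.9 CPM in WT and 23.8, 21.1 and 26.1 CPM in Bnc1tr/tr (log2 fold change -0.81, edgeR adjusted p = 0.0148). For both, every Bnc1tr/tr sample lay below every WT sample. Prkar1a and Vdac1, the most abundant genes of the list that were not called, had log2 fold changes of -0.15 and -0.17. Without WT 4, 1 gene of the list was called.

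Of 10 electron donors and mitochondrial partners, 2 passed as lower by edgeR, Txnrd2, a mitochondrial thioredoxin reductase (log2 fold change -0.44, adjusted p = 0.0318), and Lonp1, the matrix protease that degrades STAR (log2 fold change -0.50, adjusted p = 0.046). Lonp1 had 412, 372 and 347 CPM in WT and 229, 291 and 281 CPM in Bnc1tr/tr. The median of the list was -0.21. Cyb5 and Cyb5r3, a cytochrome b5 and its reductase, had log2 fold changes of -0.29 and -0.20 and did not pass. These calls were fragile. Without WT 1, WT 4, WT 7, Bnc1tr/tr 2 or Bnc1tr/tr 3, and with library size scaling, edgeR called 0 genes of the list where it had 4 at an unadjusted p under 0.05 with all samples, and without Bnc1tr/tr 1 it called 1.

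The other members of the 3beta-hydroxysteroid dehydrogenase family drew far fewer reads than Hsd3b1. Of 6 tested, 0 were called by edgeR or by limma-voom, 1 by DESeq2, and 2 had an unadjusted p under 0.05 (median log2 fold change -0.51). Hsd3b6, the near relative whose coding stretch is printed above, had 25.0, 16.5 and 18.5 CPM in WT and 8.39, 20.7 and 15.8 CPM in Bnc1tr/tr. These values overlapped, and Bnc1tr/tr 1 was the lowest. Hsd3b7, an enzyme of bile acid synthesis, had 52.3, 46.4 and 49.2 CPM in WT and 36.2, 63.3 and 50.3 CPM in Bnc1tr/tr. Hsd3b4 was at or under 3 counts in every sample. Without WT 1, edgeR called 1 gene of the family.

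Among 11 tested genes of progesterone breakdown and onward metabolism, 1 rose and 10 were not called (median log2 fold change 0.01). Srd5a1, the 5alpha-reductase that turns progesterone into dihydroprogesterone, had 58.2, 51.8 and 44.1 CPM in WT and 111, 100 and 66.8 CPM in Bnc1tr/tr. Its values did not overlap, and its log2 fold change was 0.85 (SE 0.19, 95% interval 0.41 to 1.29, edgeR adjusted p = 0.0403). Leaving out WT 1, WT 4, WT 7, Bnc1tr/tr 1 or Bnc1tr/tr 2 ended the call. Akr1cl, the relative that shares the printed stretch with Akr1c18, had 3722, 3780 and 3214 CPM in WT and 2940, 3117 and 2971 CPM in Bnc1tr/tr, with a log2 fold change of -0.25 (edgeR adjusted p = 0.198). Its values ran from 2940 to 3780 CPM over the 6 samples, and those of Akr1c18 from 6.72 to 103 CPM. Akr1c14, a 3alpha-hydroxysteroid dehydrogenase, had 144, 169 and 221 CPM in WT and 294, 124 and 170 CPM in Bnc1tr/tr. Cyp17a1, which turns progesterone towards androgens, had 8.62, 124 and 21.6 CPM in WT and 235, 3.66 and 5.46 CPM in Bnc1tr/tr, so that its highest sample, Bnc1tr/tr 1, was the lowest for Star, Cyp11a1 and Hsd3b1. Cyp17a1 was named after its values were seen. Of 4 tested members of the Akr1c family, 0 were called by edgeR, DESeq2 or limma-voom and 1 had an unadjusted p under 0.05 (median log2 fold change 0.19). Akr1c13, another aldo-keto reductase, had 4.77 to 6.32 CPM in WT and 5.48 to 7.68 CPM in Bnc1tr/tr. Akr1d1, Cyp21a1, Hsd17b6 and Akr1c20 were at or under 3 counts in every sample of at least 1 genotype.

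Of 30 transcription factors tied to steroid-making genes, 3 fell, 1 rose and 26 were not called (median log2 fold change -0.10). Of all genes tested, 4.19% fell and 2.88% rose at the same threshold. Stat5b and Stat5a, which carry the prolactin signal, had log2 fold changes of -0.87 (edgeR adjusted p = 0.0147) and -0.62 (edgeR adjusted p = 0.0338). Stat5b had 177, 205 and 266 CPM in WT and 116, 122 and 118 CPM in Bnc1tr/tr, a clear gap between the genotypes. Srebf2, the regulator of cholesterol synthesis and uptake, had a log2 fold change of -0.47 (edgeR adjusted p = 0.0241). Nr2f2, an orphan receptor of theca and stroma, rose by 0.53 on the log2 scale (edgeR adjusted p = 0.0378). Nr5a2, the nuclear receptor of granulosa and luteal cells, had 618, 609 and 404 CPM in WT and 576, 397 and 474 CPM in Bnc1tr/tr, which overlapped. Fosl2, a member of the AP-1 family, had a log2 fold change of -0.61 (edgeR adjusted p = 0.0928). With a sample left out, edgeR called from 3 genes of the list (without WT 1) to 2 (without Bnc1tr/tr 1 or 2), 1 (without WT 7 or Bnc1tr/tr 3) and 0 (without WT 4, against 12 at an unadjusted p under 0.05 with all samples).

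On the receiving side of progesterone, 1 of 10 tested genes fell, 1 rose and 8 were not called (median log2 fold change 0.11). Fkbp5, a co-chaperone of steroid receptors and a gene that they induce, had 1289, 1475 and 1538 CPM in WT and 472, 628 and 616 CPM in Bnc1tr/tr. The genotypes were far apart, and the log2 fold change was -1.33 (SE 0.14, 95% interval -1.64 to -1.01, edgeR adjusted p = 0.00284). Paqr9, of the membrane progesterone receptor family, had 4.91, 5.11 and 4.14 CPM in WT and 14.5, 9.12 and 10.8 CPM in Bnc1tr/tr (log2 fold change 1.28, edgeR adjusted p = 0.0119). Fkbp4, another co-chaperone, had a log2 fold change of 0.07, and Pgrmc1, a haem-binding membrane protein linked to progesterone signalling, had one of 0.33, and neither passed. Pgr, the nuclear progesterone receptor, was low, with 0.586 to 0.855 CPM in WT and 0.616 to 1.81 CPM in Bnc1tr/tr, which overlapped. Pgr was named after its values were seen. Whether the fall of Fkbp5 reflects progesterone was not tested. Without WT 4 or WT 7, 1 gene of the list was called.

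**Figure D5:**
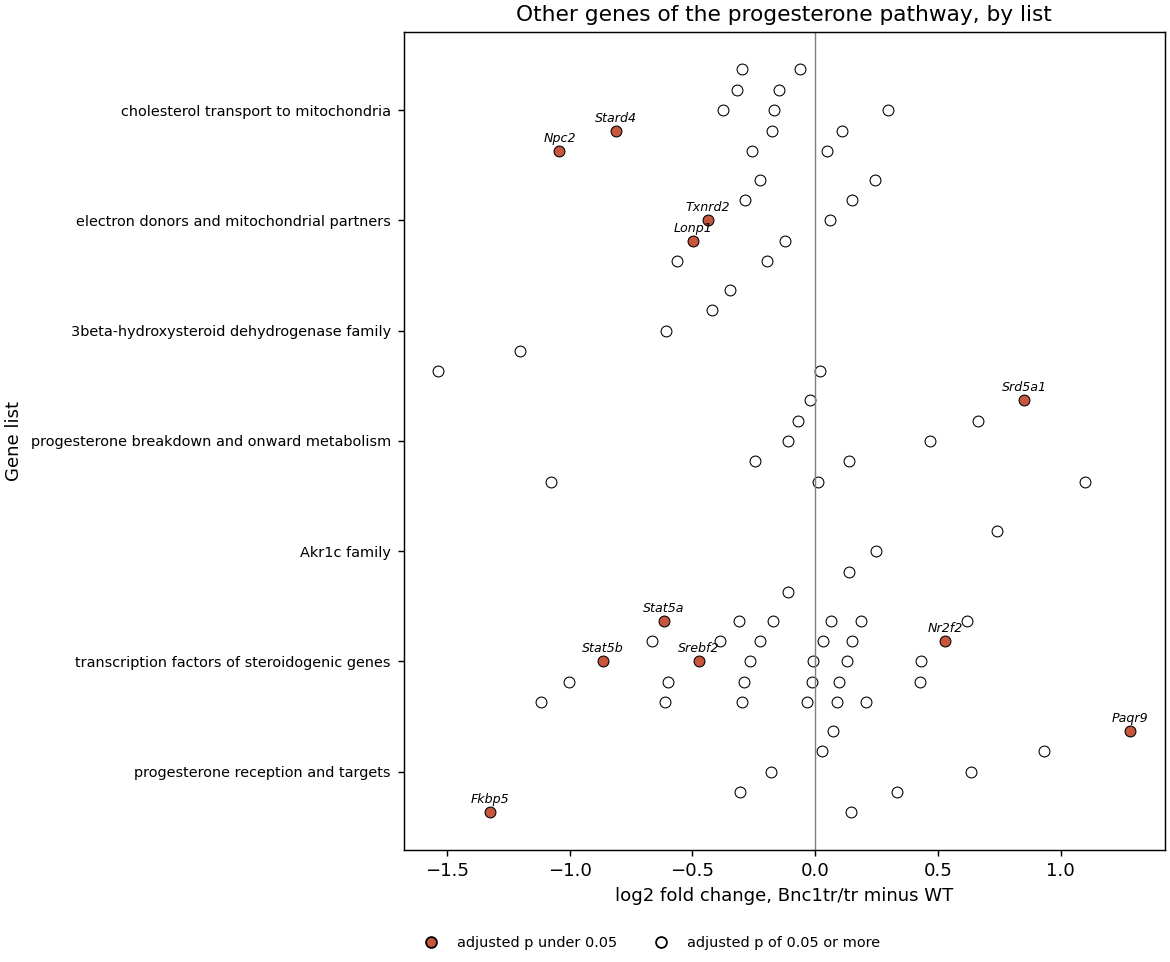
Log2 fold change, Bnc1tr/tr minus WT, of every tested gene in 7 lists around progesterone synthesis, 1 circle a gene, filled and named where the edgeR adjusted p was under 0.05. Filled circles lie left of 0 for Npc2, Stard4, Txnrd2, Lonp1, Stat5a, Stat5b, Srebf2 and Fkbp5, and right of 0 for Srd5a1, Nr2f2 and Paqr9.

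The genes whose level followed those of the pathway most closely were ranked by Pearson r of log2 CPM over the 6 samples, among 11409 genes with a mean of at least 10 CPM. The 2 genotypes, the libraries and their scaling are shared by both genes of such a pair, so r is a description. For Star, 2610001J05Rik (0.998) and Gm7338 (0.997) were among the 3 genes of highest r. Their ranges were narrow, from 20.02 to 29.25 CPM and from 225.5 to 385.3 CPM, against 151 to 2565 CPM for Star. For Cyp11a1 the 3 were Slc46a3 (0.999), Acsl4 (0.999) and Tspan31 (0.998). Tspan31 ran only from 88.74 to 123.4 CPM, against 1975 to 10793 CPM for Cyp11a1. Acsl4, which activates long-chain fatty acids such as arachidonic acid, had 173, 188 and 188 CPM in WT and 39.0, 86.1 and 70.2 CPM in Bnc1tr/tr. Acsl4 was picked by its r with Cyp11a1, so the shared order of the Bnc1tr/tr samples adds nothing to that r. Within that genotype, Bnc1tr/tr 1 was lowest and Bnc1tr/tr 2 highest for both, an order that Star and Hsd3b1 also had. For Hsd3b1 the 3 genes of highest r were Cd151 (0.999), Strbp (0.999) and Avpi1 (0.999). Cd151, a tetraspanin of the cell surface, had 543, 611 and 539 CPM in WT and 248, 376 and 354 CPM in Bnc1tr/tr. For Akr1c18 they were Pggt1b (0.992), Yipf3 (0.981) and Zbtb7c (0.981). These 3 spanned a narrow range, such as 29.0 to 36.0 CPM for Pggt1b, against 6.72 to 103 CPM for Akr1c18, so the likeness is one of order and spacing and not of size.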

How the data were processed

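Total RNA was extracted from ovaries with Trizol, and single-end libraries were read with Ion Proton sequencing. Raw read counts were deposited by the authors in 1 table, with a row for each gene symbol and a column for each of the 6 samples. The submitters' processing notes name the builds mm10 and Sscrofa10.2 with no role, and the aligner, the counter and the annotation are not given in the sources used here. Symbols were joined to GENCODE M21 models on GRCm38, and promoters were taken from RefSeq for GRCm38.p6. In R 4.3.3, genes were kept with filterByExpr (minimum count 10), scaled by TMM and tested with the quasi-likelihood method of edgeR 4.0.16, with Benjamini-Hochberg adjustment at 0.05. CPM and log2 fold changes were computed from the counts, and log2 CPM used a prior count of 2. Ratios within samples used counts plus 0.5 and an exact permutation test. Alternatives were DESeq2 1.42.0, limma-voom 3.58.1, other scalings and filters, and leaving out each sample. On simulated counts for 19423 genes of this comparison, edgeR called 47 of 90 genes with a log2 change of 1, 93 of 105 with a log2 change of 2 and 12 of 18944 unchanged genes. Genes removed by the filter after simulation are not in these counts. The simulation used the spread of each gene fitted to these data, and it changed far fewer genes than the 1372 called here. Its shares may therefore not hold for the real comparison. The genes, lists and tests were chosen with earlier results of these data known. Named were all 8 genes, the called genes of each pathway list (up to 6), its 2 most abundant genes not called, the 3 genes most like Star, Cyp11a1, Hsd3b1 and Akr1c18, Bnc1, and marker genes at or under 3 counts. A list gene was matched by an older symbol where RefSeq gave one. A gene named by this rule is not reported here.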

Additional observations from a re-analysis of the deposited data

How the results depend on the processing

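Each of the 8 log2 fold changes was recomputed under 13 alternatives. Star, Cyp11a1, Hsd3b1, Fdx1 and Fdxr were negative, and Stard3 positive, in all 13, and edgeR's threshold or that of the other tool was passed in 8, 9, 7, 1, 5 and 0 of them. Star with robust edgeR (-2.23), Hsd3b1 with library size scaling (-0.62) and Hsd3b1 with at least 10 counts in every sample (-0.72) no longer passed. Fdx1 with DESeq2 (-0.93) and Fdxr with DESeq2 (-0.91), limma-voom (-0.96) or no filter (-0.91) passed. With a sample left out, the log2 fold change ranged from -2.68 to -1.82 for Star, -1.81 to -1.23 for Cyp11a1, -0.82 to -0.57 for Hsd3b1, -1.13 to -0.68 for Fdxr, -2.18 to 0.05 for Akr1c18 (positive without WT 7) and -0.14 to 0.55 for Tspo (negative without Bnc1tr/tr 2). Over the same fits the count of the 8 genes called ranged from 0 to 4, and it was 5 with DESeq2. All genes called numbered 1372, against 2420 with DESeq2 and 320 (without WT 4) to 1282 with a sample left out. Library size scaling moved the median log2 fold change of all genes from 0.018 to 0.118 and the share of calls that were lower from 59.3% to 35.6%, while the 8 genes kept their direction. DESeq2 called 4 genes of cholesterol transport, 2 of breakdown, 7 transcription factors, 4 of reception and 1 of the 3beta-hydroxysteroid dehydrogenase family, where no filter also gave 1, and library size scaling called 0 electron donors. With a sample left out the lists gave 1 to 3 calls for cholesterol transport, 0 to 1 for electron donors, 0 to 1 for the 3beta-hydroxysteroid dehydrogenase family, 0 to 1 for breakdown, 0 to 3 for transcription factors and 1 to 3 for reception. The difference in the log2 ratio ranged from -0.11 to 1.30 for Akr1c18 to Cyp11a1, from -1.03 to 0.49 for Akr1c18 to Hsd3b1 and from -0.17 to 0.08 for Fdx1 to Fdxr, and no other ratio changed sign. The cause of these changes was not tested. A fit that leaves out a sample also has fewer samples, and the part of this was not tested either. The labels give no litter or pair, and the WT and Bnc1tr/tr samples share only the number 1. No paired analysis was therefore possible, and the tests take no account of litter. The lowest count of any of the 8 genes in any sample was 189.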
